A study of Oncorhynchus tshawytscha with 17 samples.

Results

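Chinook salmon (Oncorhynchus tshawytscha) whose gut microbiota had been treated in either way, with antibiotics or with probiotics, were set against control fish as a single comparison, across all genes of the hindgut. Libraries were assigned by the treatment in their labels, and all 17 libraries of the series entered: 11 treated, made up of 5 antibiotic and 6 probiotic fish, against 6 controls. The comparison asks what the hindgut transcriptome of both kinds of treated fish has in common relative to controls. It was described over 42554 named genes, and the single table entry without a gene identifier was left out.

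All fish are labelled diploid, and the material of every group is labelled as epithelium of the hindgut. Treated fish received their agent for 10 days and were then euthanized in clove oil. The antibiotics, the probiotic strains, the doses, the age of the fish and any sham treatment of controls are not stated in the labels used here. Each library name joins the group to the title's number and letter: ctl12A to ctl12C and ctl35A to ctl35C are controls, abx67A to abx67C, abx91A and abx91B received antibiotics, and pro115A to pro115C and pro139A to pro139C received probiotics. The labels do not say what the title numbers mean or that fish came from separate tanks. Each number belongs to a single group, so a difference between the units behind those numbers and a difference between groups cannot be told apart, and p-values measure only the spread between these libraries.

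The hindgut is the last stretch of the intestine. In fish its enterocytes take up intact protein by endocytosis and digest it in large lysosomal vacuoles, and the epithelium renews itself from dividing cells at the base of its folds. Renewal needs DNA replication and ribosome production: in the nucleolus RNA polymerase I transcribes ribosomal RNA, small nucleolar particles modify it, and separate sets of assembly factors fold and trim the small and the large subunit. In other fish and in mice the resident microbiota is known to influence epithelial renewal, lysosomal digestion and mucosal immunity.

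Counts assigned to named genes ranged from 38.1 to 56.7 M per library in controls and from 28.6 to 61.1 M in treated fish. Of 10 genes taken as defining markers of hindgut epithelium, 8 were matched and tested, and cdx2 and ctsl were not matched under those symbols. The intestinal regulator gene cdx1b lay between 73.2 and 87.8 CPM (counts scaled to library size) in controls and between 57.7 and 89.2 CPM in treated fish. The protein uptake receptor gene cubn lay between 3426 and 6087 CPM in controls and between 3747 and 5911 CPM in treated fish. The ileal bile acid genes fabp6 and slc10a2, the microvillus gene vil1 and the cubilin partner gene amn were at 375 CPM or more in every library, and the matched copy of lgmn was between 0.614 and 9.11 CPM. Both arms therefore carried most of the markers of the labelled tissue. Libraries are bulk RNA, so fewer cells of a type and less RNA per cell cannot be told apart.

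No gene passed the test over all genes. With edgeR's quasi-likelihood test at a Benjamini-Hochberg adjusted p under 0.05, 0 of 29705 tested genes were called (0%), and the smallest adjusted p was 0.158. An unadjusted p under 0.05 was found in 2579 genes, of which 1481 were higher in treated fish (4.99% of those tested) and 1098 lower (3.7%). Limma-voom called 0 genes. DESeq2 called 26 (0.0875%), 14 higher and 12 lower, and in 14 of these 26 the libraries of an arm spanned over 3 log2 units. Over all tested genes 53.1% had a positive fold change, with a median of 0.02 on the log2 scale. The number at an unadjusted p under 0.05 depended on single controls: without ctl12C it was 2441 higher and 1724 lower, without ctl35C it was 912 and 622, and without ctl35A it was 866 higher. Leaving out all controls of title number 35 left 355 and 349. With upper-quartile scaling it was 1264 higher and 1394 lower, and 48.2% of all genes were then higher, with a median of -0.01.

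Separation of the arms was rare. In 3 genes all 11 treated libraries lay above all 6 controls (0.0101% of those tested), and in 7 genes all lay below (0.0236%). Genes are named below in order of p and of separation, and they are called higher or lower only as a description of their values, since none passed in edgeR. Fold changes are log2 values of treated over control fish, ± an SE derived from the edgeR F statistic.

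The pair of genes with the clearest separation were neighbours. LOC112241820 (plus strand of sequence NW_020131978.1, 27697 to 34377) and LOC112241821 (same strand, 34479 to 37217) carry no gene symbol in the files or the reference table, and no source used here gives the genome build of the coordinates. LOC112241820 was at 2.86, 4.47 and 6.77 CPM in the lowest, median and highest control and at 7.25, 11.5 and 16.8 CPM in treated fish. LOC112241821 was at 4.74, 7.0 and 8.81 CPM in controls and at 9.33, 15.8 and 20.3 CPM in treated fish. Every treated library was therefore above every control for both. Whether they belong to a single transcribed unit was not tested, so they may not be separate cases in the count of 3 genes. Their fold changes were 1.35 ± 0.23 and 1.08 ± 0.19, each with an edgeR adjusted p of 0.158, and DESeq2 called both (adjusted p = 5.16e-05 and 9.50e-05). Antibiotic and probiotic fish taken singly, against the same 6 controls, gave 1.37 and 1.34 for LOC112241820 and 1.13 and 1.03 for LOC112241821. The third gene above all controls, LOC112244698, was at 1.6 to 2.32 CPM in controls and 2.56 to 3.63 CPM in treated fish (0.49 ± 0.13).

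**Figure D1:**
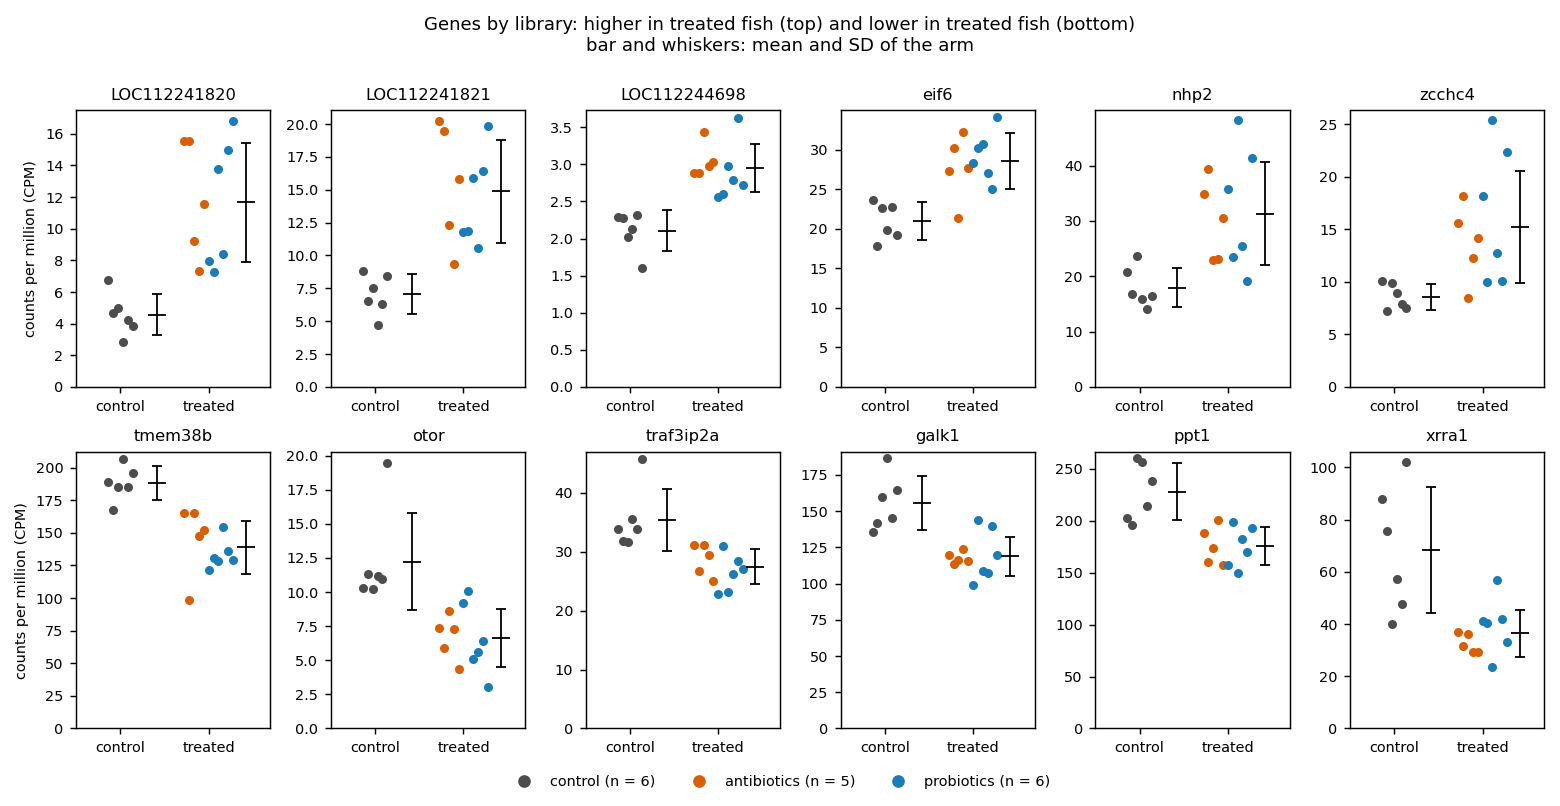
CPM (vertical axes, linear, from 0) of 6 genes higher and 6 genes lower in treated fish, by arm; each point is a library, and the bar with whiskers is the mean and SD of the 6 controls or the 11 treated fish. LOC112241820, LOC112241821 and LOC112244698 do not overlap between arms, nor do tmem38b, otor and traf3ip2a, while the other 6 overlap.

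Among genes with a symbol, those of smallest p on the higher side included several that act on ribosomes. First came eif6 (minus strand of NC_037103.1, 30928082 to 30940815), whose product binds the maturing large ribosomal subunit and keeps it from joining the small one. Its transcripts were at 17.8, 21.2 and 23.7 CPM in the lowest, median and highest control and at 21.4, 28.3 and 34.1 CPM in treated fish. All but a single treated library, abx67C, were above all controls. The fold change was 0.45 ± 0.10 (edgeR adjusted p = 0.529, DESeq2 adjusted p = 0.0266), with 0.41 for antibiotics and 0.48 for probiotics. Next was nhp2 (minus strand of NC_037126.1, 3670913 to 3672798), a subunit of the small nucleolar particles that turn uridine of ribosomal RNA into pseudouridine. It was at 14.2, 16.6 and 23.7 CPM in controls and at 19.2, 30.5 and 48.3 CPM in treated fish, so the arms overlapped and 7 of 11 treated libraries were above all controls. Its fold change was 0.80 ± 0.19 (edgeR adjusted p = 0.539, DESeq2 adjusted p = 0.0475).

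The rest of the 15 genes at this end shared that adjusted p of 0.539. For zcchc4, a methyltransferase of large-subunit ribosomal RNA, controls spanned 7.24 to 10.05 CPM and treated fish 8.47 to 25.4 CPM, and 9 of 11 treated libraries were above all controls. For utp20, a scaffold of the small subunit processome, the spans were 11.9 to 21.5 and 16.6 to 40.2 CPM, with 7 of 11 above. Further genes of this set work in the nucleolus or on ribosomal protein: ftsj3, a methyltransferase of precursor ribosomal RNA (0.63 ± 0.18), urb1, a large subunit assembly factor (0.90 ± 0.26), and prmt3, which methylates ribosomal protein S2 (0.51 ± 0.14). The other named genes were ccdc86, a nucleolar protein (0.58 ± 0.14), cab39l, a scaffold of the kinase Lkb1 (0.72 ± 0.19), pold3, a subunit of DNA polymerase delta (0.43 ± 0.12), rpia, which makes ribose 5-phosphate (0.75 ± 0.21), the cationic amino acid transporter gene slc7a3a (0.68 ± 0.19), the kinase gene wnk1b (1.67 ± 0.45, at most 0.687 CPM in any library), and zgc:101716 and zgc:77151 (0.55 and 0.51). Annotated spans of zgc:101716 and urb1 overlap those of other genes, and no source used here gives the strand setting of the counting.

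On the lower side the smallest p among genes with a symbol belonged to xrra1, at 39.95, 66.6 and 102.01 CPM in the lowest, median and highest control and at 23.6, 36.3 and 57.0 CPM in treated fish. It was below all controls in 7 of 11 treated libraries, with a fold change of -0.91 ± 0.19 (edgeR adjusted p = 0.501, DESeq2 adjusted p = 0.0112). Complete separation was seen in 3 genes with a symbol. The first, tmem38b (plus strand of NC_037116.1, 39853511 to 39866464), encodes a potassium channel of the endoplasmic reticulum that balances calcium release, and stood at 168, 187 and 207 CPM in controls and at 98.3, 136 and 165 CPM in treated fish (-0.44 ± 0.10). The second, otor (plus strand of NC_037102.1, 63179555 to 63181077), encodes a small secreted protein best known from the inner ear, and stood at 10.2, 11.05 and 19.4 CPM in controls and at 3.07, 6.38 and 10.05 CPM in treated fish (-0.88 ± 0.21). The third, traf3ip2a (plus strand of NC_037114.1, 13264900 to 13270684), encodes an adaptor of interleukin-17 receptors, and stood at 31.6, 33.8 and 45.8 CPM in controls and at 22.9, 27.1 and 31.1 CPM in treated fish (-0.36 ± 0.09). The gap between the lowest control and the highest treated library was narrow in all 3, and each had an edgeR adjusted p of 0.539. The unnamed genes LOC112249348, LOC112253256, LOC112214559 and LOC112266349 made up the 7 genes with all treated libraries below all controls, at fold changes of -0.68, -0.32, -0.26 and -0.94.

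Metabolic and lysosomal genes were also among the 15 of smallest p on this side. The galactose kinase gene galk1 was at 136 to 186 CPM in controls and 98.9 to 144 CPM in treated fish (-0.39 ± 0.09, 9 of 11 below all controls), and its annotated span overlaps that of another gene. The lysosomal thioesterase gene ppt1 was at 196 to 261 CPM in controls and 150 to 201 CPM in treated fish (-0.38 ± 0.09, 9 of 11 below). The brush border enzyme gene treh, whose symbol stands for 2 copies in the table, was at 227 to 327 CPM in controls and 143 to 230 CPM in treated fish (-0.41 ± 0.10, 10 of 11 below). These values are those of 1 copy. The other either had no unadjusted p under 0.05 or was not tested. Others were c1qtnf12, an adipokine gene (-0.71 ± 0.16), bida, a cell death inducer of the Bcl2 family (-0.60 ± 0.16, 10 of 11 below), trmt1l, a transfer RNA methyltransferase gene (-0.33 ± 0.08, 10 of 11 below), mcama, an adhesion molecule of vessels (-1.08 ± 0.28), ak7a, an adenylate kinase of cilia (-1.15 ± 0.28), and rnf151 (-2.15 ± 0.57).

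A few of the lowest p-values rested on part of the controls. The gene of smallest p of all, LOC112234113, was at 1.09 to 5.42 CPM in 4 controls but at 0.159 and 0.113 CPM in ctl12B and ctl12C, and at 0 to 0.309 CPM in treated fish (-3.96 ± 0.67). The copy of the folate enzyme gene dhfr with a symbol was at 35.1 CPM in ctl35C and at most 0.379 CPM in any treated library, and its fold change of -4.76 became 0.19 without that control. The thymus-type serine protease gene prss16 was at most 0.334 CPM in treated fish and had a median of 0.220 CPM in controls, with a highest value of 6.35 CPM.

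The first of the gene groups, ribosome assembly and RNA polymerase I, lay higher in treated fish. The list held 66 tested genes, and 64 of them (97.0%) had a positive fold change, against 53.1% of all tested genes. Their median was 0.44 on the log2 scale, or 1.35-fold, and 48 of 66 were higher at an unadjusted p under 0.05 while 0 were lower, beside 4.99% and 3.7% of all tested genes. None passed over all genes. This list, like all others, was chosen with earlier results of these data known, so its counts are a description. Its members include nhp2 and utp20, already named for their small p. Members vary together from library to library, so they do not count as 66 separate observations. Under both other scalings the number with a positive fold change was also 64 of 66, and with no filter on low counts 67 of 70 genes were.

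By role, positive fold changes were found at each step of ribosome production. All 5 tested RNA polymerase I genes were higher, with a median of 0.41: polr1a, which encodes the largest subunit, was at 18.3, 20.02 and 25.1 CPM in the lowest, median and highest control and at 17.1, 29.9 and 47.2 CPM in treated fish (0.50 ± 0.16). All 5 small nucleolar particle genes were higher, with a median of 0.56. Among these the pseudouridine synthase gene dkc1 was at 31.4, 35.2 and 45.4 CPM in controls and at 28.4, 58.3 and 87.6 CPM in treated fish (0.56 ± 0.20), and its annotated span overlaps those of other genes. All 29 small subunit genes were higher, with a median of 0.43 and 19 of them at an unadjusted p under 0.05. The small subunit export factor gene rrp12 was at 22.8, 29.6 and 38.5 CPM in controls and at 21.8, 47.4 and 92.7 CPM in treated fish (0.83 ± 0.25), and wdr75, a processome subunit, was above all controls in 10 of 11 treated libraries (0.53 ± 0.16). Of 25 large subunit genes 24 were higher, with a median of 0.49 and 20 at an unadjusted p under 0.05. Here pes, a factor of large subunit processing, was at 61.6, 74.5 and 95.7 CPM in controls and at 74.9, 105 and 154.5 CPM in treated fish (0.50 ± 0.15). The genes nop2 and sdad1 had fold changes of 0.61 ± 0.18 and 0.49 ± 0.14, each with 9 of 11 treated libraries above all controls.

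Exceptions within the list were few. The members below 0 were nmd3, an export adaptor of the large subunit (-0.30 ± 1.03), and ddx21, a nucleolar RNA helicase (-0.04 ± 0.16). The fibrillarin gene fbl had the highest fold change of the list with a wide error (1.78 ± 1.03). The nucleolin gene ncl, an abundant nucleolar protein, was at 525, 601 and 770 CPM in controls and at 587, 792 and 1004 CPM in treated fish (0.32 ± 0.12), with its span overlapping other genes.

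**Figure D2:**
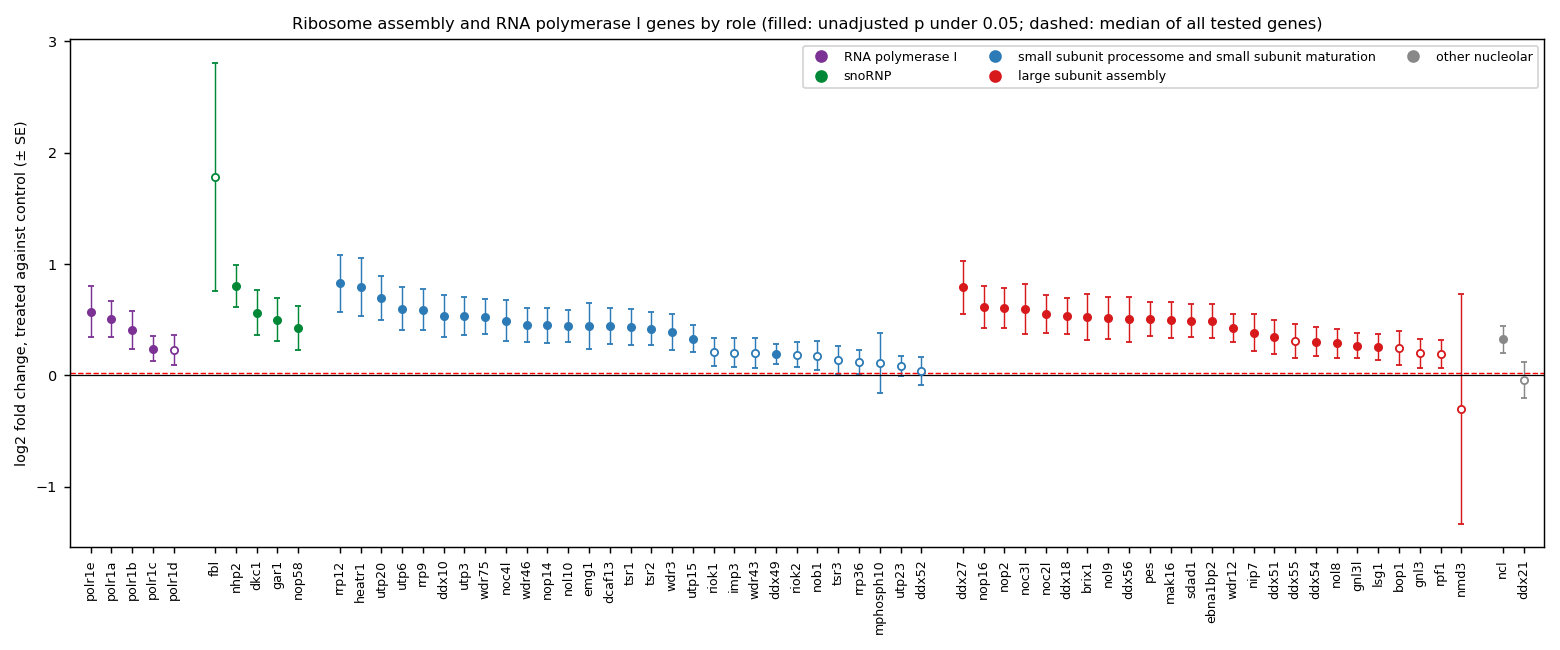
Log2 fold change of treated over control fish (vertical axis, ± SE) of the 66 tested ribosome assembly and RNA polymerase I genes, ordered within each role; filled points have an unadjusted p under 0.05 (48 genes) and the dashed line is the median of all tested genes (0.02). All but nmd3 and ddx21 lie above 0. Role medians run from 0.41 to 0.56, except 0.14 for the other nucleolar genes ncl and ddx21.

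Library by library the list separated the arms only in part. For each library the list was summarised by the median, over its members, of log2 CPM minus the member's mean over the 17 libraries. Controls ranged from -0.42 (ctl12B) to -0.12 (ctl12C), and treated fish from -0.33 to 0.72 (pro115C). Of 11 treated libraries 9 were above all controls, and abx67C (-0.33) and pro139B (-0.21) were within the control range. In abx67C 22 of the 66 members were below all controls and 3 above, whereas in pro115C 61 were above. The share of all tested genes beyond the controls in these libraries was not counted, so these numbers have no background. By title number the control means were -0.25 and -0.27 and the means of the 4 treated numbers were 0.08, 0.16, 0.29 and 0.06.

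The libraries abx67C and pro139B also had the highest values of the liver list, at 2.42 and 1.08, against at most 0.24 in controls. In abx67B and pro115A the liver value was above all controls as well, and so was their ribosome assembly value. A relation between the 2 lists was not tested. Without abx67C or pro139B singly 51 and 50 of 66 ribosome assembly genes were higher at an unadjusted p under 0.05. In a further alternative abx67C, abx91B, pro139B and pro139C were left out together, of which abx91B had liver and pancreas list values within the control range (-0.09 and -0.98). Without these 4 libraries 65 of 65 ribosome assembly genes were higher and 52 had an unadjusted p under 0.05. Because abx67C and pro139B were the only treated libraries within the control range of this list, leaving them out raises these counts by construction. Library titles also give an index label whose column number runs from 9 to 12. In the title of abx67C that label holds both 9 and 12, and its column was read as 9. Within those columns the list value of treated minus control fish was 0.16, 0.67, 0.31 and 0.47, from 1 or 2 controls and 2 to 4 treated fish each, and with the column in the fit 43 of 66 members had an unadjusted p under 0.05. With the smooth muscle value of each library as a covariate, chosen after seeing the data, 66 of 66 were higher and 34 had an unadjusted p under 0.05. Single libraries left out gave 36 to 51 such genes, while leaving out the controls of title number 35 gave 17 of 67 and those of number 12 gave 27 of 67. Over all tested genes the number higher was 866 to 2441, 355 and 2630 in the same order, beside 1481 as reported.

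**Figure D3:**
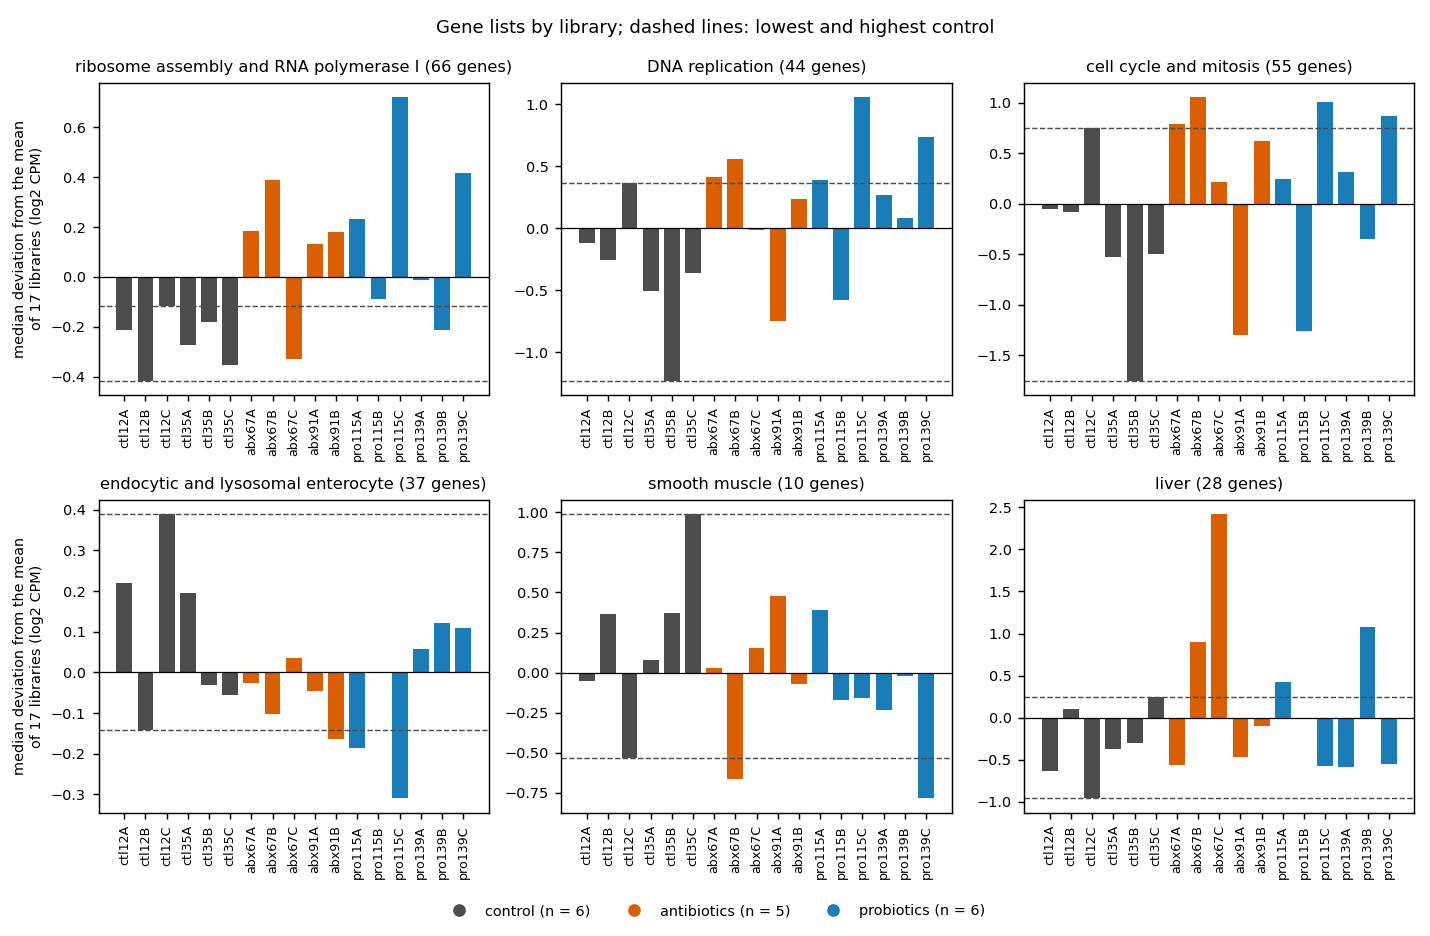
Median deviation of each library from the mean of 17 libraries (log2 CPM, vertical axes) for 6 gene lists, with bars coloured by group and dashed lines at the lowest and highest control. For ribosome assembly 9 of 11 treated libraries exceed the highest control. For the DNA replication, cell cycle, lysosomal and smooth muscle lists most treated libraries fall between the control lines. Liver exceeds the highest control in 4 of 11 treated libraries and is highest in abx67C and pro139B.

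DNA replication genes, which license origins, unwind DNA and copy it, were next. Of 44 tested genes 43 were higher in treated fish (97.7%), with a median of 0.54 or 1.46-fold. An unadjusted p under 0.05 was found in 27 higher genes, beside 4.99% of all tested genes, and 1 lower, which was dhfr. All 12 origin and helicase genes were higher with a median of 0.63, all 20 polymerase, primase and clamp genes with a median of 0.53, and all 6 chromatin and fork genes with a median of 0.39. For pold3 controls spanned 8.36 to 10.5 CPM and treated fish 8.23 to 14.9 CPM, and 10 of 11 treated libraries were above all controls. The single-strand binding gene rpa1 was at 17.8, 25.3 and 34.3 CPM in the lowest, median and highest control and at 27.2, 35.6 and 56.6 CPM in treated fish (0.57 ± 0.17). The origin recognition gene orc3 was at 6.62, 9.54 and 13.6 CPM in controls and at 8.74, 14.2 and 25.4 CPM in treated fish (0.53 ± 0.21), with 8 of 11 above all controls. The thymidylate synthase gene tyms ranged from 8.46 to 51.6 CPM in controls and from 15.9 to 97.2 CPM in treated fish (0.76 ± 0.35).

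The list value spanned more among controls than that of ribosome assembly. Controls ranged from -1.23 (ctl35B) to 0.36 (ctl12C) and treated fish from -0.74 (abx91A) to 1.06 (pro115C), and 5 of 11 treated libraries were above all controls. The count of 27 fell by more than 1.5 times without any of 7 single libraries: it was 12 without ctl12B, 7 without ctl35A, 4 without ctl35B, 9 without ctl35C, 14 without abx67B, 12 without pro115C and 14 without pro139C. Without the other 10 libraries, left out singly, it was 18 to 35, and the highest values were 35 without ctl12C, 34 without abx91A and 31 without pro115B. Without the controls of title number 35 it was 1 of 44, with the smooth muscle covariate 4, without the same 4 libraries 9, and with the index column in the fit 10. The number of genes with a positive fold change was 42 to 45 in every alternative run.

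Cell cycle and mitosis genes had a median of 0.57, with 52 of 55 higher (94.5%). At an unadjusted p under 0.05, 6 were higher (10.9%), beside 4.99% of all tested genes. Fish of the same arm differed widely: the proliferation marker mki67 was at 15.8, 52.9 and 114.6 CPM in the lowest, median and highest control and at 19.4, 97.9 and 183 CPM in treated fish (0.91 ± 0.46). The mitotic topoisomerase gene top2a was at 21.0, 72.5 and 142 CPM in controls and at 25.3, 119 and 182 CPM in treated fish (0.62 ± 0.40). The list value was lowest in ctl35B (-1.75), abx91A (-1.30) and pro115B (-1.25). The count of 6 was 30 without ctl12C, 19 without pro115B and 15 without abx91A. Over all tested genes the number higher was then 2441, 2055 and 1987, beside 1481 as reported. The count was 3 without abx67B or pro139C, 2 without ctl35C or pro115C, and 1 without ctl35A or ctl35B. For these libraries the number over all tested genes was 866 to 1217. Without the controls of title number 35 the count was 0 of 56, with 45 higher, beside 355 over all tested genes. Without those of number 12 it was 40 of 56, beside 2630. The genes of smallest p acted at entry into division and DNA synthesis: the Cdk subunit genes cks2 (0.48 ± 0.17) and cks1b (0.80 ± 0.32), cdca7a, a chromatin factor (1.12 ± 0.48), and the transcription factor gene e2f1 (0.67 ± 0.29), each with 6 or 7 of 11 treated libraries above all controls.

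**Figure D4:**
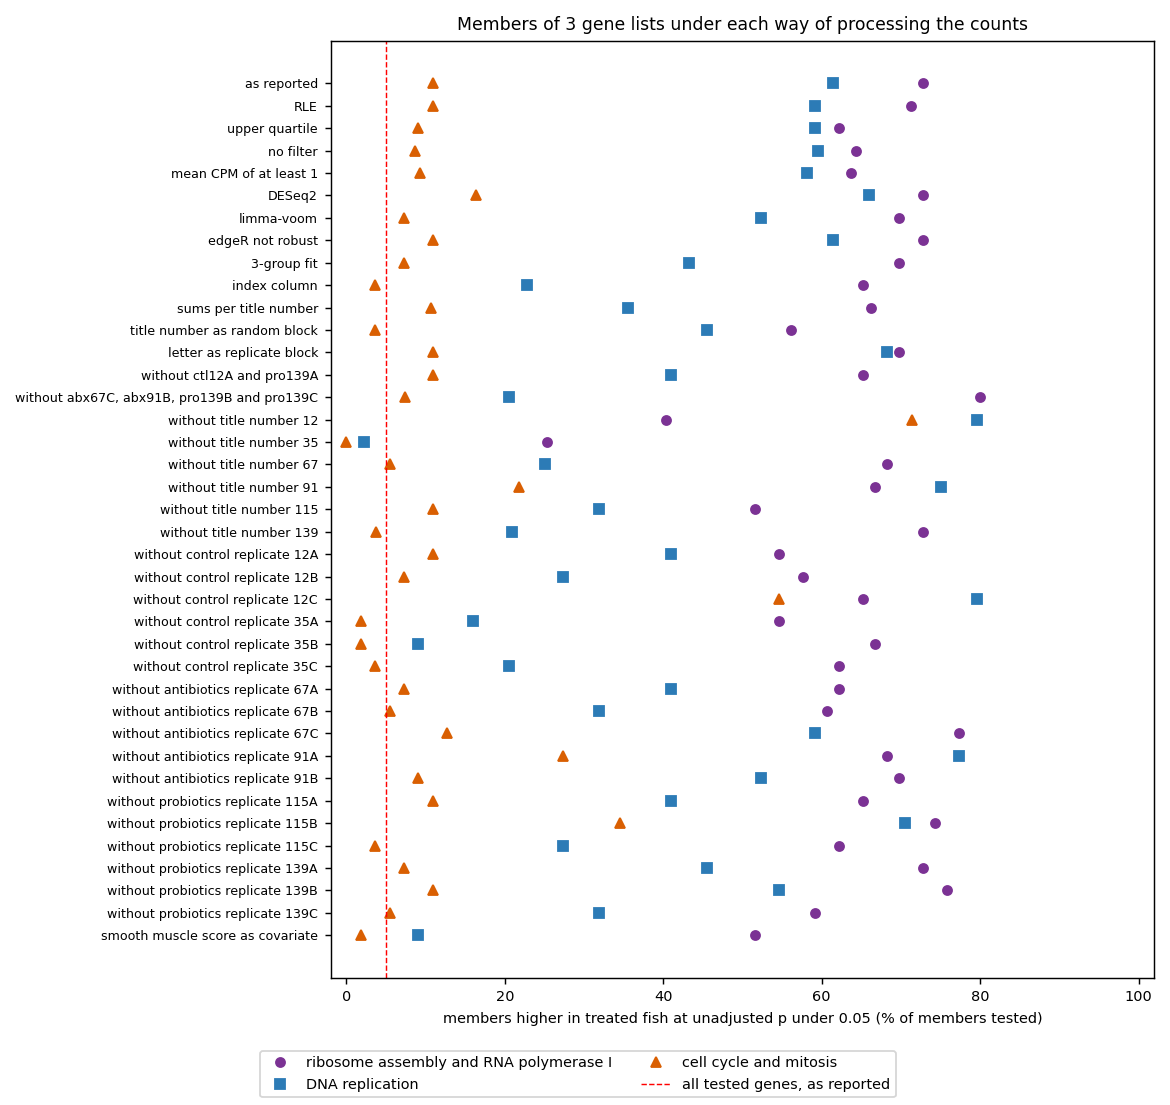
Share of tested members higher in treated fish at an unadjusted p under 0.05 (horizontal axis, %) for 3 gene lists, as reported and under each alternative (rows). Ribosome assembly stays above the dashed line in every row, from 17 of 67 genes without title number 35 to 52 of 65. The line marks all tested genes as reported (4.99%) and is not redrawn by row. Over all tested genes the number higher was 355 without title number 35 and 2630 without title number 12. DNA replication falls below the line only without title number 35 (1 of 44), and cell cycle genes in several rows.

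Other groups that feed protein synthesis lay on the same side. These lists were written after the ribosome assembly values were seen, so they are given as a description. All 18 aminoacyl-tRNA synthetase genes, which charge transfer RNAs, were higher, with a median of 0.29. The alanine enzyme gene aars1 was at 29.1, 39.1 and 74.7 CPM in the lowest, median and highest control and at 40.3, 74.2 and 119 CPM in treated fish (0.68 ± 0.25). Of 33 translation initiation and elongation genes 28 were higher, with a median of 0.20. The initiation factor gene eif3b was at 12.29 to 19.9 CPM in controls and 15.05 to 38.5 CPM in treated fish (0.58 ± 0.19), with 9 of 11 above all controls and a span that overlaps another gene. Purine and pyrimidine synthesis genes had a median of 0.25, and 16 of 17 were higher, among them the purine enzyme gene pfas (0.53 ± 0.17). Of 35 nuclear pore and transport genes 34 were higher, with a median of 0.32. The pore scaffold gene nup93 was at 21.6, 29.5 and 52.5 CPM in controls and at 27.5, 54.1 and 78.1 CPM in treated fish (0.66 ± 0.24). Members higher at an unadjusted p under 0.05 numbered 9 for synthetases (50%) and 11 for translation (33.3%). They numbered 5 for nucleotide synthesis (29.4%) and 12 for the nuclear pore (34.3%), beside 4.99% of all tested genes. Without the controls of title number 35 these counts were 1, 2, 0 and 0, and without ctl12B alone the synthetase count was 3. Over all tested genes the number higher was 355 without title number 35, beside 1481 as reported. Positive fold changes without title number 35 were still found in 16, 32, 14 and 31 genes of these lists.

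Components of the finished ribosome had smaller values. Of 40 cytosolic ribosomal protein genes 31 were higher, with a median of 0.05. At an unadjusted p under 0.05, 1 was higher (2.5%), beside 4.99% of all tested genes. The list median ranged from -0.04 to 0.14 over 38 alternatives, so its sign was not stable. For the mitochondrial ribosome the median was 0.19, with 50 of 54 genes higher. At an unadjusted p under 0.05, 7 were higher (13.0%) and 2 lower (3.7%), beside 4.99% and 3.7% of all tested genes. Without the controls of title number 35 these counts were 0 and 2, beside 355 and 349 over all tested genes. There 45 of 54 genes had a positive fold change. The mitochondrial large subunit gene mrpl2 was at 21.1, 21.9 and 33.2 CPM in controls and at 21.5, 31.7 and 48.3 CPM in treated fish (0.45 ± 0.15). Nuclear genes of oxidative phosphorylation were divided, with 18 of 32 higher and a median of 0.01.

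**Figure D5:**
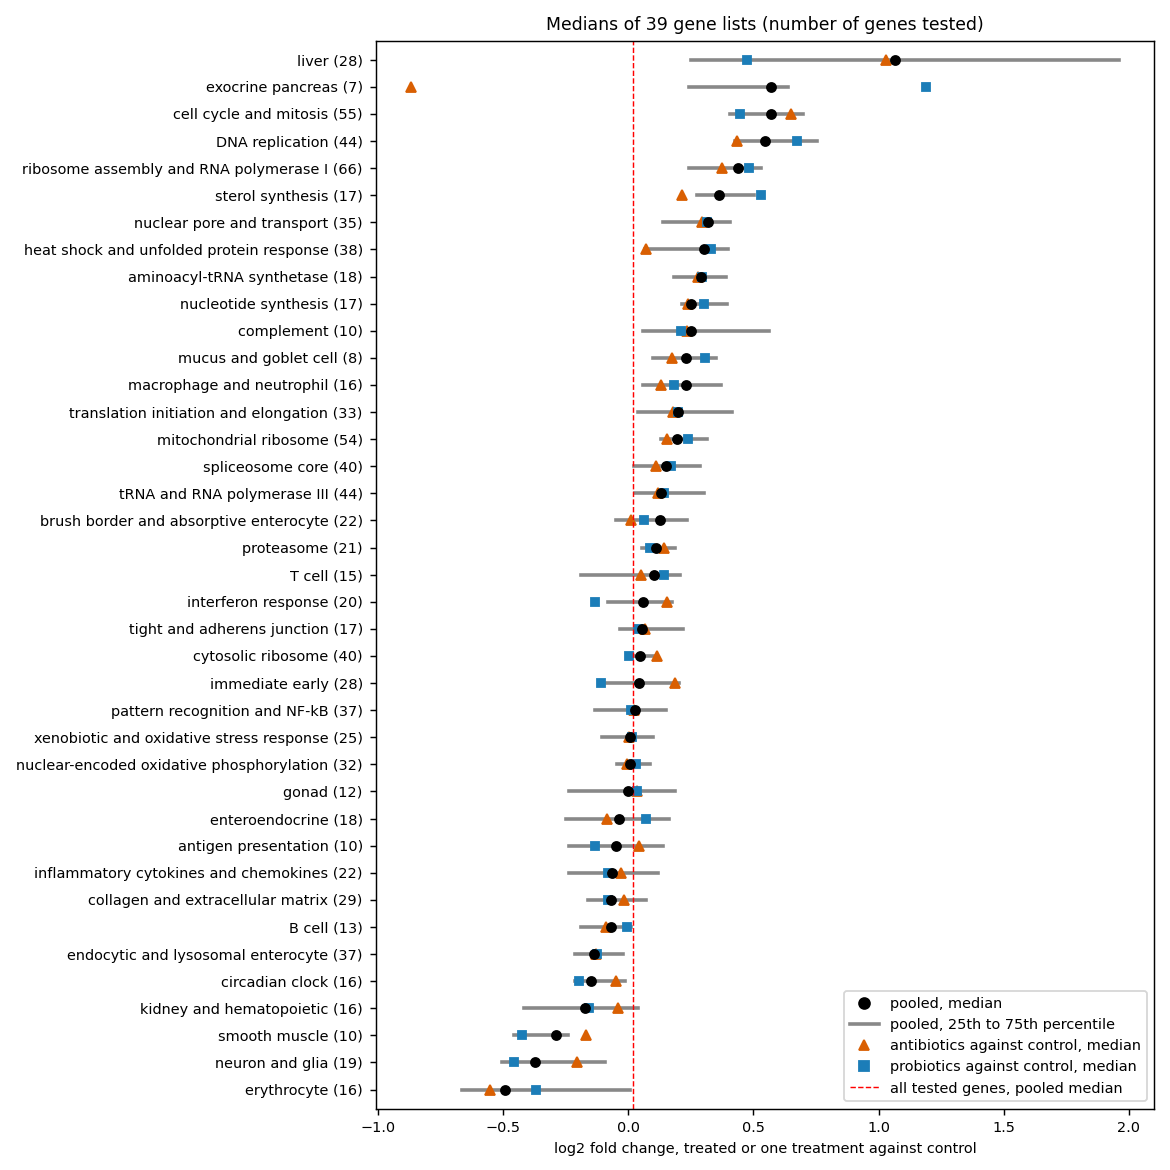
Median log2 fold change (horizontal axis) of 39 gene lists, with the number of tested genes in brackets: circles and grey bars give the pooled median and the 25th to 75th percentile of members, triangles antibiotics and squares probiotics against the same 6 controls. Ribosome assembly (0.44), DNA replication (0.54) and cell cycle (0.57) lie right of the dashed median of all genes (0.02), the lysosomal enterocyte list (-0.14) lies left of it, and antibiotics and probiotics fall on opposite sides of 0 for exocrine pancreas.

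Genes of the lysosomal system by which hindgut enterocytes digest absorbed protein had mostly negative fold changes. In the list of endocytic and lysosomal enterocyte genes 29 of 37 were lower, with a median of -0.14. An unadjusted p under 0.05 was found in 7 lower genes, beside 3.7% of all tested genes, and 0 higher. Besides ppt1, the hexosaminidase gene hexb was at 5705, 6187 and 8267 CPM in the lowest, median and highest control and at 4203, 5121 and 5927 CPM in treated fish, and 10 of 11 treated libraries were below all controls (-0.35 ± 0.10). The span of hexb overlaps that of gfm2. The dipeptidyl peptidase gene ctsc was at 1459, 1598 and 2011 CPM in controls and at 1098, 1349 and 1575 CPM in treated fish (-0.29 ± 0.09, 8 of 11 below), and the proton pump subunit gene atp6v0a1 was at 1.71, 2.47 and 3.93 CPM in controls and at 1.101, 1.699 and 2.56 CPM in treated fish (-0.59 ± 0.21).

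The remaining genes of that 7 were wash1, which promotes actin assembly on endosomes (-0.46), the cathepsin gene ctsh (-0.38) and the lysosomal glucosidase gene gaa (-0.60). The uptake receptor genes cubn and amn had fold changes of 0.01 and -0.06. As a list, controls ranged from -0.14 to 0.39 and treated fish from -0.31 to 0.12, and 3 of 11 treated libraries were below all controls. By title number the control means were 0.15 and 0.04. The treated means were -0.03 and -0.10 for antibiotics and -0.16 and 0.10 for probiotics. The last is that of pro139A to pro139C, which were at 0.06 to 0.12. Within index columns 9 to 12 treated minus control was -0.20, -0.10, 0.05 and -0.34. Leaving out single libraries gave 5 to 8 lower genes at an unadjusted p under 0.05, sums per title number gave 3, and leaving out the controls of number 35 gave 4. Over all tested genes the number lower was 622 to 1724, 888 and 349 in the same order, beside 1098 as reported. Without the controls of number 12, 16 of 37 members had a positive fold change, beside 8 as reported, and without those of number 35 it was 3. Brush border and absorptive enterocyte genes were mixed, with 15 of 22 higher and a median of 0.13. The lower gene treh was the only member at an unadjusted p under 0.05 (4.55%, beside 3.7% of all tested genes).

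Immune lists had medians on both sides of 0. Pattern recognition and NF-kB genes had a median of 0.02 with 21 of 37 higher, inflammatory cytokine and chemokine genes -0.06 with 9 of 22 higher, antigen presentation genes -0.05 with 4 of 10 higher, and interferon response genes 0.06 with 12 of 20 higher. T cell, B cell, and macrophage and neutrophil markers had medians of 0.10, -0.07 and 0.23, and complement genes had 0.25 with 8 of 10 higher. Heat shock and unfolded protein response genes were higher in 30 of 38, with a median of 0.30. At an unadjusted p under 0.05, 8 were higher (21.1%, beside 4.99% of all tested genes) and 1 lower. The count of 8 was 3 to 13 with single libraries left out and 0 without the controls of title number 35. Over all tested genes the number higher was 866 to 2441 and 355 in the same order, beside 1481 as reported. By title number the list means were -0.02 and -0.28 in controls, 0.07 and -0.12 for antibiotics and 0.10 and 0.27 for probiotics. The chaperonin gene cct7 was at 153, 169 and 213 CPM in the lowest, median and highest control. In treated fish it was at 170, 222 and 282 CPM (0.35 ± 0.13). Among sterol synthesis genes 16 of 17 were higher, with a median of 0.36. At an unadjusted p under 0.05, 1 was higher (5.88%, beside 4.99% of all tested genes) and 0 lower. The sterol list value was -0.69 to 0.44 in controls and -1.09 to 0.89 in treated fish. By title number its means were 0.02 and -0.36 in controls, 0.21 and -0.35 for antibiotics and -0.03 and 0.37 for probiotics.

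Markers of tissue outside the epithelium also had fold changes away from 0, and their part in the results above was not tested beyond the alternatives given. All 10 smooth muscle genes were lower, with a median of -0.29. Their summed level was 1725 to 4385 CPM in controls and 1281 to 2729 CPM in treated fish, and the contractile gene cnn1b was at 276, 563 and 1075 CPM in the lowest, median and highest control and at 209, 377 and 590 CPM in treated fish (-0.60 ± 0.25). By title number the smooth muscle list means were -0.07 and 0.48 in controls, -0.16 and 0.20 for antibiotics and 0.02 and -0.35 for probiotics. Within index columns 9 to 12 treated minus control was 0.03, -1.15, -0.19 and -0.03. Neuron and glia markers were lower in 14 of 19 (median -0.37). They summed to 53.1 to 151 CPM in controls and 49.1 to 125 CPM in treated fish. By title number their list means were -0.03 and 0.50 in controls, -0.11 and 0.19 for antibiotics and 0.16 and -0.41 for probiotics. In both lists the mean of ctl12A to ctl12C lay within the range of the treated means. Erythrocyte markers were lower in 11 of 16 (median -0.49). They summed to 222 to 375 CPM in controls and 209 to 293 CPM in treated fish. An unadjusted p under 0.05 was found in 4 lower erythrocyte markers (25%, beside 3.7% of all tested genes), and in 0 without ctl12B. Over all tested genes the number lower was 815 without ctl12B, beside 1098 as reported. Liver markers were higher in 22 of 28 with a median of 1.07, and summed to 65.1 to 99.7 CPM in controls and 50.1 to 251 CPM in treated fish. That median stood on few libraries, since the list value of 7 treated fish lay within the control range, and it was 0.43 in pro115A, 0.89 in abx67B, 2.42 in abx67C and 1.08 in pro139B. Exocrine pancreas markers summed to 26.8 to 148 CPM in controls and 18.8 to 816 CPM in treated fish, with the top value in pro139C.

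Between the treatments themselves no gene was called. In the fit with 3 groups, antibiotics against probiotics gave 0 of 29705 genes in edgeR (0%) and 0 in limma-voom, with 1791 at an unadjusted p under 0.05 in edgeR, and DESeq2 called 23. A p that misses the threshold does not show that the treatments act alike. Both are set against the same 6 controls, so their values are given side by side and no overlap is counted. Ribosome assembly genes had medians of 0.37 for antibiotics and 0.48 for probiotics, DNA replication genes 0.44 and 0.67, and cell cycle genes 0.65 and 0.45. Nuclear pore genes had 0.29 and 0.31, and lysosomal enterocyte genes -0.13 and -0.12. Within probiotics the lysosomal list value had means of -0.16 and 0.10 by title number. DNA replication means by title number were -0.004 and -0.70 in controls, 0.32 and -0.25 for antibiotics and 0.29 and 0.36 for probiotics. Cell cycle means were 0.21 and -0.93, 0.69 and -0.34, and 0.001 and 0.28 in the same order. In both lists abx91A and abx91B thus had a mean below that of ctl12A to ctl12C. For cell cycle genes pro115A to pro115C did as well. The widest gaps between treatment medians were those of exocrine pancreas markers (-0.87 and 1.19) and liver markers (1.03 and 0.48). Others were those of heat shock genes (0.07 and 0.33), sterol synthesis genes (0.22 and 0.53) and smooth muscle genes (-0.17 and -0.43). Interferon response genes had 0.16 and -0.14, and immediate early genes 0.19 and -0.11, so their pooled medians near 0 combine medians of opposite sign. By title number the immediate early list had means of -0.10 and 0.51 for antibiotics, so the antibiotic fish themselves differed in sign. Its means were -0.32 and -0.05 for probiotics and -0.11 and 0.08 in controls.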

How the data were processed

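The data were RNA sequencing counts per gene from 17 hindgut libraries. The authors deposited a single table of read counts made with featureCounts. Trimmomatic 0.38 and HISAT2 are named in the submitters' processing notes. Neither the genome build nor the strand setting nor the handling of multi-mapping reads is given in the sources used here, and salmonid genomes hold many near-identical gene copies among which such reads could be split. The entry without an identifier (0.155 to 0.523% of counts) was left out. Symbols came from the table (4401) or from the reference table of assembly Otsh_v2.0, used for names only (6084 of 38153 LOC identifiers), and list members were matched by exact symbol, so copies without a symbol are in no list.

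Genes kept by filterByExpr were scaled by TMM and tested with edgeR 4.0.16 (robust quasi-likelihood F-test, 2-sided) in R 4.3.3, with antibiotics and probiotics as 1 treated group. A fit with 3 groups gave each treatment. DESeq2 1.42.0 and limma 3.58.1 (voom) were alternatives. DESeq2 gave no adjusted p to 114 genes. Log2 CPM used a prior count of 2. The pipeline was tested on simulated counts. Other alternatives were 2 scalings, 2 filters, the index column, sums or a random block per title number, the title letter as a block, and libraries or title numbers left out. Letters were checked for pairing between treated and control libraries. Those sharing a letter had a mean correlation of 0.00967 of their deviations (-0.258 to 0.484), beside -0.00456 for other letters. No pairing was seen on average, but the check cannot exclude one. Depth limits scarce genes. The printed SE is the absolute log2 fold change divided by the square root of the edgeR F statistic. It thus restates that test, and it covers only the spread between libraries.

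Named genes are the 15 of smallest p in each direction with a symbol, the genes of smallest p among all tested, those whose arms do not overlap at a mean of at least 1 CPM, and, of each list, members of smallest p and the most abundant one. Members named by role, wash1, ctsh, gaa, mki67, top2a, fbl, nmd3 and LOC112266349 were chosen after their values were seen, as were the roles and 8 of the 39 lists. The comparison and all lists were chosen with earlier results of these data known. No list was tested as a set.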

Additional observations from a re-analysis of the deposited data

Results flagged for a closer look

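In groups of 5 or 6 fish the libraries below stood apart from the rest of their group by Dixon's criterion at 95%, which chance meets in about 1 of 20 groups; 420 groups were examined and 28 values stood out. Control ctl35C stood apart for dhfr (35.1 CPM), otor (19.4 CPM), traf3ip2a (45.8 CPM), LOC112244698 (1.6 CPM) and tpm2 (2430 CPM), and ctl35B for LOC112261768 (20.1 CPM), chaf1a (21.5 CPM), dctpp1 (2.04 CPM) and tyms (8.46 CPM). Other controls were ctl12C for cct5 (202 CPM) and ctl12B for fgg (2.34 CPM) and for the erythrocyte list (1.01 on the log2 scale). Antibiotic fish abx67C stood apart for ccdc86 (18.8 CPM), sdad1 (15.4 CPM), polr1a (17.1 CPM) and LOC112244698 (3.44 CPM). Fish abx91A stood apart for ddx21 (526 CPM), chaf1a (27.8 CPM), lig1 (15 CPM) and tyms (15.9 CPM), and abx67B for tmem38b (98.3 CPM), ggt1b (414 CPM) and the heat shock list (0.41). Probiotic fish were pro139C for trmt1l (18.8 CPM), pro115C for LOC112214559 (30.7 CPM), and pro115B for LOC112258258 (0 CPM), LOC112216052 (0.169 CPM) and e2f1 (2.06 CPM).

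Of the 5 antibiotic fish, abx67C was lowest for ccdc86, sdad1 and polr1a and abx91A for chaf1a, lig1 and tyms, and ctl35B was the lowest control for chaf1a and tyms. What sets these fish apart was not tested.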

How the results depend on the processing

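EdgeR and limma-voom called 0 genes between treated and control fish in all alternatives run but 1: without title number 12 edgeR called 1 gene, LOC112234113 (adjusted p = 0.00271). DESeq2 called 26, and 23 between antibiotics and probiotics, where the other 6 alternatives called 0. With any of the 17 libraries left out the count was 0 throughout. With the title letter as a replicate block it was also 0, with 1576 genes higher and 1085 lower at an unadjusted p under 0.05. The labels do not say what the letters mean, and the block changed no call. Numbers at an unadjusted p under 0.05 moved most without title number 12 (2630 higher, 1743 lower) and without title number 35 (355 and 349), and 694 genes were lower with the smooth muscle covariate. With title number as a random block they were 1029 and 988 (consensus correlation 0.0445). The fold change of dhfr changed sign without ctl35C (0.19) and without title number 35 (0.12). That of ddx21, -0.04 as reported, changed sign without abx67C, abx91B, pro139B and pro139C (0.0514), without title number 35 (0.18), without the fish of title number 67 (0.0242), without pro139A to pro139C (0.0619), without ctl35C (0.0137) and with the smooth muscle covariate (0.0948); the cause was not tested. With single libraries left out, dhfr ranged from -5.01 to 0.19 and ddx21 from -0.12 to 0.0137. The ribosome assembly median ranged from 0.36 to 0.49 over 38 alternatives, that of DNA replication from 0.27 to 0.91, that of cell cycle genes from 0.13 to 1.28 and that of lysosomal genes from -0.19 to -0.06.

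Limits: title numbers nest in groups, controls and treated fish cannot be compared within a number, and leaving out number 35 lowers most counts. Genes under about 1 CPM rest on few counts.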

Other observations

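Among gene groups not described above, mucus and goblet cell markers were higher in 6 of 8, with a median of 0.23. Spliceosome core genes were higher in 32 of 40, with a median of 0.15, and genes of RNA polymerase III and of transfer RNA processing in 34 of 44, with a median of 0.13. Proteasome genes were higher in 17 of 21, with a median of 0.11. Over all tested genes 53.1% were higher. At an unadjusted p under 0.05, 1 mucus (12.5%), 6 spliceosome (15%), 8 polymerase III (18.2%) and 1 proteasome gene (4.76%) were higher, beside 4.99% of all tested genes. Lower ones numbered 0, 0, 1 and 1. Within index columns 9 to 12 the proteasome list value of treated minus control fish was 0.08, -0.06, 0.26 and -0.04. Circadian clock genes were lower in 12 of 16, with a median of -0.15; the most abundant member, bhlhe40, was at 124, 161 and 187 CPM in the lowest, median and highest control and at 56.4, 121 and 183 CPM in treated fish (-0.40 ± 0.21). Collagen and extracellular matrix genes had a median of -0.07, with 10 of 29 higher. At an unadjusted p under 0.05, 2 collagen and matrix genes were higher and 1 lower, and 0 circadian clock genes were found on either side. The spliceosome, polymerase III, proteasome and collagen lists are among the 8 chosen after values were seen.

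For kidney and hematopoietic markers, in 8 of 11 treated fish the list value was below all controls, which spanned 0.10 to 0.32, while the summed level was 4737 to 7696 CPM in controls and 4744 to 7449 CPM in treated fish. The median fold change of its 16 tested genes was -0.17 in edgeR, and 0 had an unadjusted p under 0.05.

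Outside the genes with a symbol, DESeq2 called some whose treated libraries spanned a wide range. LOC112234485 had a fold change of 5.28, with 9 of 11 treated libraries above all controls and treated values spanning 6.84 log2 units. LOC112264620 had 4.47 with 4 of 11 above.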
